A study of Homo sapiens with 18 samples.

Results

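The response of THP1 cells to the material labelled GO was set against the response of Jurkat cells to GONH2. The comparison holds 12 of the 18 arrays of the series, chosen by their titles, and each response is the log2 fold change between 3 treated and 3 control arrays. THP1 is a line from a human monocytic leukemia and Jurkat a line from a human T-cell leukemia. By their labels, the groups were THP1 cells given GO, THP1 controls, Jurkat cells given GONH2 and Jurkat controls. GO is graphene oxide, a sheet of oxidized carbon, and GONH2 is GO to which amino groups were coupled. The study describes the GONH2 sheets as thicker, so the materials differed in more than these groups. Treated cells were exposed to 50 µg/ml for 24 h, and control cells had 0 µg/ml. RNA was read on Illumina HumanHT-12 v4 arrays, on which bead-bound probes measure transcripts. Each line is 1 established leukemia line, and no primary monocytes or T cells were hybridized.

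The pairing of groups with different labels was chosen from values of these arrays and is no finding. Across 19455 tested probes, the THP1 GO fold changes correlated at r = 0.216 with those of Jurkat GONH2 and at r = 0.0208 with those of Jurkat GO. The THP1 arrays labelled GONH2 correlated at r = 0.854 with Jurkat GO and at r = -0.00104 with Jurkat GONH2. Responses of 1 line share their control arrays, and probes are not independent replicates. The line and the labelled material differ together between the responses, so their parts in a difference cannot be told apart. Whether the GO and GONH2 labels of the monocyte arrays were exchanged could not be settled, so the material behind the arrays labelled GO is uncertain. The groups are called by their labels throughout.

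The arrays labelled Jurkat carried many myeloid transcripts and few T-cell transcripts, against their label, and the identity of the cells could not be settled. Jurkat below means the arrays so labelled. Of 26 myeloid markers on the array, 21 were detected on all 3 Jurkat controls, among them SPI1 and CEBPA, transcription factors of the myeloid lineage, and the granule genes ELANE and AZU1. Of 24 T-cell markers, 7 were detected there, namely CD3D, CD247, CD4, LAT, LEF1, BCL11B and SH2D1A, while CD3E, CD5 and CD28 were not. The summed linear signal of the myeloid markers was 69157 to 75921 in THP1 GO, 95266 to 101513 in THP1 controls, 52018 to 53757 in Jurkat GONH2 and 56309 to 59079 in Jurkat controls. That of the T-cell markers was 422 to 448 in THP1 GO, 334 to 385 in THP1 controls, 935 to 963 in Jurkat GONH2 and 1031 to 1182 in Jurkat controls. Both sums moved with the treatments, and their part in the results was not tested. Over all tested probes the mean levels of THP1 and Jurkat controls had a Pearson's r of 0.977, and each array detected 15761 to 17781 probes.

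Several systems described here are known from myeloid cells. Chemokines of the CCL family are secreted proteins that draw leukocytes, and macrophages release CCL3, CCL4 and CCL5 on contact with particles or microbes. Type I interferon acts through a cell surface receptor, and the transcription factors it activates bind a short element in the promoters of antiviral genes. Immediate early genes such as EGR1 and FOS are transcribed within minutes of MAP kinase signaling, and the ID proteins hold back differentiation by binding partners of basic helix-loop-helix factors.

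The motif GAAANNGAAA, or TTTCNNTTTC on the other strand, is the core of the interferon-stimulated response element. The promoters of the 3 interferon genes with the largest opposite responses are shown, because their RNA moved in opposite directions in the lines. Sequences are from RefSeq on GRCh38.p14, run from 250 bases before to 50 bases after the annotated start, and carry matches to the motif in capitals. IFI27 (chr14:94110486-94110785, plus strand) had matches 108 and 95 bases before the start. For another annotated start of IFI27 (chr14:94110565-94110864, not shown), the same matches lie 187 and 174 bases before it. IFI6 (chr1:27672143-27672442, minus strand) had matches at 156, 115 and 93, and OAS3 (chr12:112938224-112938523, plus strand) at 143 and 12.
IFI27: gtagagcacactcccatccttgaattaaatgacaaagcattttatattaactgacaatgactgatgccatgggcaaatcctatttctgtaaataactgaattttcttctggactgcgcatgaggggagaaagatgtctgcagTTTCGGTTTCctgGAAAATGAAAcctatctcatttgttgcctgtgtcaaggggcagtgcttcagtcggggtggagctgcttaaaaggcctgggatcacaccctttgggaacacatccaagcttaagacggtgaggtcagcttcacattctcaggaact
IFI6: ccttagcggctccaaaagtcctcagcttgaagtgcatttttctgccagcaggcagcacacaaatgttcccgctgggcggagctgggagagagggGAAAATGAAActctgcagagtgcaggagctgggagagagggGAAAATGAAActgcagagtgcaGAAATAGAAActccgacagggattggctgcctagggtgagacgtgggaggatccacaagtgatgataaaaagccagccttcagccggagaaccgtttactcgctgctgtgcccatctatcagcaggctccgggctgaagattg
OAS3: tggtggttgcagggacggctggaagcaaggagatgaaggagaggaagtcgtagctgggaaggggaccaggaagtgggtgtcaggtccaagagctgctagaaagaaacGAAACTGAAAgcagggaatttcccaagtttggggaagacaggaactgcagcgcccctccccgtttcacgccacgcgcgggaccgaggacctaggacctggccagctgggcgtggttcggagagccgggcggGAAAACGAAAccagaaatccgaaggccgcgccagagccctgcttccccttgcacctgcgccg

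The motif occurred in 1255 of 35116 RefSeq promoter windows of this length (3.57%), and in at least 1 window of 1195 of 27305 genes (4.38%). Of 28 tested interferon-stimulated genes, 22 had a window in the table, and 16 of them carried the motif. Their median log2 fold change was -0.31 in THP1 GO and 0.46 in Jurkat GONH2, against 0.04 and 0.17 in the same order for the 6 without it. Members varied within both sets. OAS1, without the motif, changed by -0.70 in THP1 GO and 0.50 in Jurkat GONH2, while IFI44L (0.58 and 0.03) and BST2 (0.13 and 0.09) carry it. A match describes these letters and does not show a bound factor.

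A microRNA gene also moved in opposite directions. The probe of MIR221 reads a transcript of its locus, and neither the arm nor the mature form can be told from it. Its mature 3p product shares its seed, bases 2 to 8 in capitals, with that of the neighboring MIR222, whose probe was not among those tested. The seed GCUACAU is the part that pairs with target RNAs.
hsa-miR-221-3p: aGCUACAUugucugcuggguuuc
hsa-miR-222-3p: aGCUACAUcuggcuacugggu
They lie on the minus strand of chromosome X, at chrX:45746180-45746202 and chrX:45747036-45747056 of GRCh38.p14.

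A transcript was counted as changed at p under 0.001 and an adjusted p under 0.05 in limma's moderated test (Benjamini-Hochberg over all 19455 tested probes). The p-values measure the spread between 3 arrays per group. The labels call these biological replicates and say nothing more of their origin. THP1 GO raised 1254 probes (6.45% of those tested) and lowered 1329 (6.83%), while Jurkat GONH2 raised 239 (1.23%) and lowered 166 (0.853%). The responses differed for 561 probes that were higher in THP1 GO (2.88%) and 511 that were lower (2.63%). With each line fitted alone on its 6 arrays, 1543 probes passed in THP1 GO and 158 in Jurkat GONH2. Changes of at least 2-fold numbered 232 up and 152 down in THP1 GO, and 14 up and 9 down in Jurkat GONH2.

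Without Jurkat control replicate 1 the Jurkat GONH2 count was 75 in place of 405, and it was 86, 172, 192, 120 and 125 without each of the other Jurkat arrays. It was 259 without THP1 GO replicate 2. The SD of the log2 fold changes was 0.40 in THP1 GO and 0.24 in Jurkat GONH2, and the median standard error of a fold change was 0.13. With the arrays scaled on their medians, the median fold change of all probes was -0.23 in THP1 GO and -0.05 in Jurkat GONH2, and only 11.1% of the THP1 GO calls were rises, against 48.5% with quantile normalization.

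Both responses were called for 133 probes. In 113 the direction was the same, 62 up and 51 down, which is 4.37% of the THP1 GO calls and 27.9% of the Jurkat GONH2 calls. In 107 of the 113, the 95% interval of the difference lay within 2-fold either way. The same held for 15391 of the 19455 tested probes (79.1%), and the 113 had been chosen by a shared sign. The other 20 of the 133 changed in opposite directions, 8 up and 12 down in THP1 GO. A missing call in 1 line does not show a difference. Of the 2450 probes called in THP1 GO alone, 1559 had no called difference, and for 1322 the interval lay within 2-fold. Of the 272 called in Jurkat GONH2 alone, these numbers were 218 and 189. With 1 probe per gene, 55 of 11130 genes changed alike, 22 up and 33 down, and 14 changed oppositely. Of the 405 probes called in Jurkat GONH2, 309 (76.3%) had the same sign in THP1 GO, and of the 2583 called in THP1 GO, 1706 (66.0%) had the same sign in Jurkat GONH2. Over all tested probes the share was 57.4%. Leaving out Jurkat control replicate 1 left 27 alike and 7 opposite probes.

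**Figure D1:**
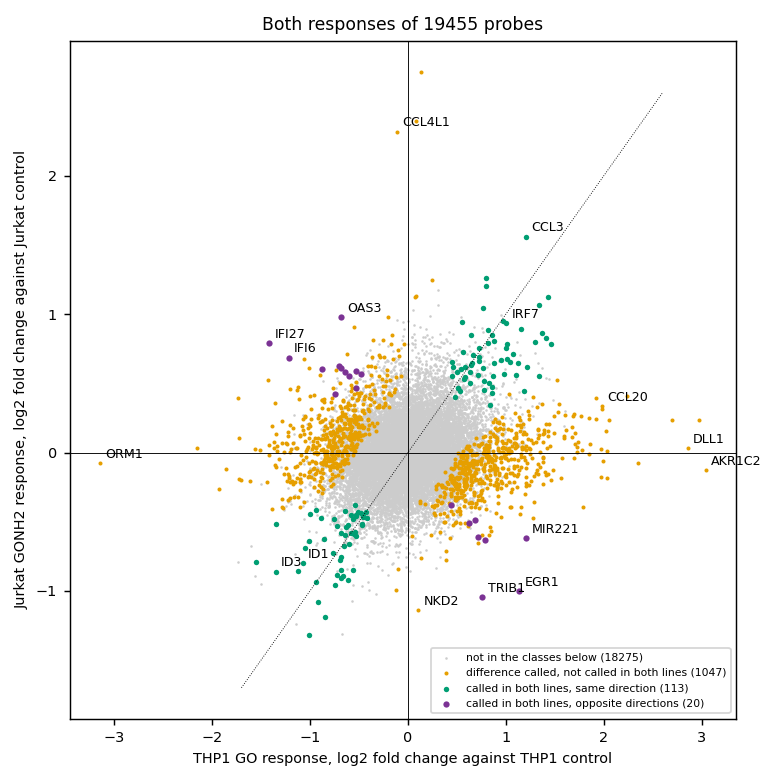
Each point is a probe, with its log2 fold change in THP1 GO against THP1 controls on the x axis and in Jurkat GONH2 against Jurkat controls on the y axis. Green marks the 113 probes called in both lines with the same sign, purple the 20 called with opposite signs and orange the other probes with a called difference, most of which lie along the horizontal axis, and the dotted line marks equal responses.

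Chemokine genes of the CCL3 and CCL5 loci were raised in both lines. CCL3, a macrophage inflammatory protein, had log2 intensities of 5.84, 6.27 and 6.23 in THP1 GO, against 4.40, 5.18 and 5.14 in THP1 controls, where no array detected it. It had 9.20, 8.99 and 9.11 in Jurkat GONH2, against 7.29, 7.66 and 7.66 in Jurkat controls. Treated and control arrays did not overlap in either line, which the rule that named the gene required. The probe was brighter on the Jurkat arrays than on any THP1 array. The rise was at least 1.66-fold in THP1 GO (adjusted p = 0.00112) and 2.95-fold in Jurkat GONH2 (log2 fold change 1.56, SE 0.20, adjusted p = 0.00638). Since the THP1 side is only a bound, the sizes of the responses cannot be compared.

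CCL3L3, a near-identical copy of CCL3, had log2 intensities of 8.05, 8.15 and 7.91 in THP1 GO, against 6.53, 6.80 and 6.66 in THP1 controls. It had 10.39, 10.19 and 10.20 in Jurkat GONH2, against 9.16, 9.61 and 9.42 in Jurkat controls. Its log2 fold change was 1.37 (SE 0.13) in THP1 GO and 0.86 in Jurkat GONH2. CCL3L1, a further copy, changed by 0.79 and 1.26 in the same order. The probes of these copies may read each other's transcripts, so they count as 1 locus rather than as separate evidence.

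CCL5, which attracts T cells and monocytes, responded to nearly the same extent. Its log2 intensities were 11.38, 11.19 and 11.15 in THP1 GO, against 10.53, 10.68 and 10.59 in THP1 controls. They were 11.94, 12.04 and 12.05 in Jurkat GONH2, against 11.33, 11.44 and 11.35 in Jurkat controls. The groups were apart in both lines, with a log2 fold change of 0.64 in each (SE 0.09, adjusted p = 0.000445 in THP1 GO and 0.00797 in Jurkat GONH2). The 95% interval of the difference was -0.28 to 0.29. A second, dimmer CCL5 probe changed by 0.31 in THP1 GO and 0.32 in Jurkat GONH2 and was called in neither. With median scaling CCL5 was called in neither line, and CCL3L3 was not called in Jurkat GONH2.

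Other chemokine genes parted. CCL4L1, a copy of the CCL4 gene, had log2 intensities of 4.70, 4.77 and 4.47 in THP1 GO, against 4.54, 5.04 and 4.70 in THP1 controls, detected on none of these 6 arrays. It had 7.30, 7.24 and 7.00 in Jurkat GONH2, against 5.33, 4.74 and 4.51 in Jurkat controls, where 1 of 3 arrays detected it. It rose in Jurkat GONH2 (log2 fold change 2.32, SE 0.20, adjusted p = 0.000403), and the difference was called (adjusted p = 0.000408) with the THP1 side at background. CCL20, a ligand of CCR6, showed the reverse, with a log2 fold change of 1.99 in THP1 GO, 0.34 in Jurkat GONH2 (not called) and a difference of 1.65 (adjusted p = 0.00535).

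CCL2, the monocyte chemoattractant, was dim throughout. It had 4.31, 4.51 and 4.83 in THP1 GO, against 5.25, 5.17 and 5.26 in THP1 controls, detected on 0 and 1 of 3 arrays, and 5.92, 6.02 and 6.11 in Jurkat GONH2, against 5.53, 5.44 and 5.23 in Jurkat controls. The lower level in THP1 GO was called, but it lies below detection and no fold is given. The rise of 0.61 in Jurkat GONH2 was called too, but this call was lost in 8 of 13 other settings and whichever Jurkat array was left out, as well as without THP1 control replicate 2 or THP1 GO replicate 2 (0.53 to 0.68). The THP1 call was lost without THP1 control replicate 3, THP1 GO replicate 1 or THP1 GO replicate 2. Of the 9 tested chemokine genes, 4 rose and 1 fell in THP1 GO and 5 rose in Jurkat GONH2. The 5 include CCL2, and any copies of a locus were counted as separate genes. Over all 11130 tested genes, 7.03% rose and 8.08% fell in THP1 GO, 0.952% rose and 0.988% fell in Jurkat GONH2, and the difference was called higher in THP1 GO for 3.26% and lower for 2.96%. The chemokines' median log2 fold changes were 0.26 and 0.61 in the same order, against -0.02 in both responses over all tested genes.

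**Figure D2:**
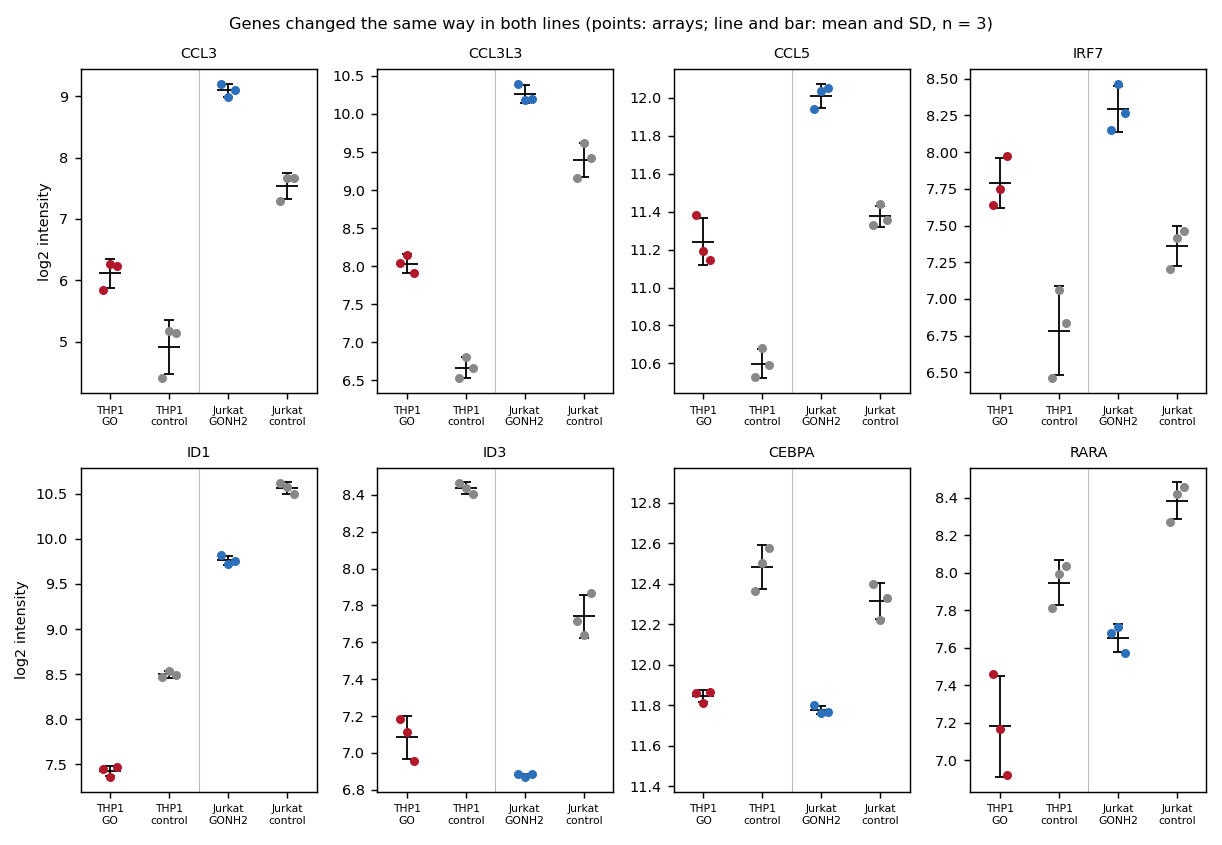
Log2 intensity of 8 genes called in both lines with the same sign, by group, with points for arrays and a line and bar for the mean and SD (n = 3). The axes do not start at 0. CCL3, CCL3L3, CCL5 and IRF7 are higher and ID1, ID3, CEBPA and RARA lower on every treated array than on every control array of the same line. The rule that named CCL3, CCL3L3, IRF7, ID1, ID3 and RARA required this separation, and CEBPA was named after its values were seen.

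Receptor and regulator genes were also raised in both responses. IRF7, the regulator that amplifies interferon transcription, had log2 intensities of 7.64, 7.75 and 7.97 in THP1 GO, against 6.46, 7.06 and 6.83 in THP1 controls. It had 8.15, 8.46 and 8.27 in Jurkat GONH2, against 7.20, 7.41 and 7.46 in Jurkat controls. The log2 fold changes of 1.00 and 0.93 differed by 0.07 (95% interval -0.40 to 0.55). A second IRF7 probe changed by 0.04 in THP1 GO and 0.53 in Jurkat GONH2 and was called in neither, and with median scaling neither line was called. The Jurkat call was lost without Jurkat control replicate 1 (0.86), Jurkat control replicate 2 (0.96) or Jurkat GONH2 replicate 2 (0.85).

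FCGR1A, the high-affinity receptor for IgG on monocytes, changed by 0.98 in THP1 GO and 0.57 in Jurkat GONH2, and its copy FCGR1BP by 1.01 and 0.79. The Jurkat call was lost whichever Jurkat array was left out for FCGR1A (0.54 to 0.60) and without Jurkat control replicate 2 for FCGR1BP (0.75). VEGFA, a growth factor for blood vessels that also responds to low oxygen, rose by 1.01 in THP1 GO and 0.68 in Jurkat GONH2, by its brighter probe, and was named after its values were seen. Its other probe changed by 0.77 and 0.66 and was called in neither, and the Jurkat call of the brighter probe was lost whichever Jurkat array but GONH2 replicate 3 was left out (0.52 to 0.69). NECAB1, a calcium-binding protein best known from neurons, rose by 1.34 and 1.07 in the same order. OCSTAMP, a fusion factor of osteoclasts, was detected on no control array of either line and was at least 1.61-fold higher in THP1 GO and at least 1.42-fold higher in Jurkat GONH2. The Jurkat call of OCSTAMP was lost without Jurkat control replicate 1 or 3 or Jurkat GONH2 replicate 2 or 3.

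SATL1, CYTOR and NBPF14 also rose in both lines, less firmly. SATL1 changed by 0.80 in THP1 GO and 1.20 in Jurkat GONH2, and its THP1 call was lost in 8 of 12 omissions of an array (0.66 to 0.86). CYTOR, a long noncoding RNA, changed by 0.73 and 0.69 in the same order, and its Jurkat call was lost without Jurkat control replicate 1, Jurkat GONH2 replicate 1 or Jurkat GONH2 replicate 2 (0.53 to 0.67). NBPF14 belongs to a family of near-identical copies, and its other probe changed by -0.33 in each line. Its Jurkat call was lost whichever Jurkat array but control replicate 3 was left out (0.66 to 0.78), and its THP1 call without THP1 GO replicate 1 (0.66).

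Genes lowered in both lines included regulators of differentiation. ID1 had log2 intensities of 7.45, 7.36 and 7.46 in THP1 GO, against 8.47, 8.54 and 8.49 in THP1 controls. It had 9.82, 9.72 and 9.75 in Jurkat GONH2, against 10.62, 10.58 and 10.49 in Jurkat controls. The gene was about 2 log2 units brighter in Jurkat and fell in both, by 1.07 in THP1 GO (SE 0.08, adjusted p = 7.42e-06) and by 0.80 in Jurkat GONH2 (adjusted p = 0.00122). The 95% interval of the difference was -0.52 to -0.03. A second ID1 probe changed by -0.31 and -0.48 in the same order and was called in neither.

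ID3 had log2 intensities of 7.18, 7.12 and 6.96 in THP1 GO, against 8.47, 8.44 and 8.41 in THP1 controls. It had 6.88, 6.87 and 6.88 in Jurkat GONH2, against 7.71, 7.64 and 7.87 in Jurkat controls. It fell by 1.35 in THP1 GO and 0.86 in Jurkat GONH2, and the calls of ID1 and ID3 held in both lines whichever array was left out. ID2, of the same family, was not called in either line (0.10 and 0.11). SMAD6, which restrains the BMP signaling that induces ID genes, rose by 0.97 in THP1 GO, with 0.00 in Jurkat GONH2 (not called).

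The myeloid transcription factor genes CEBPA and SPI1 fell in both lines. CEBPA, needed for granulocyte and monocyte development, had log2 intensities of 11.86, 11.81 and 11.87 in THP1 GO, against 12.36, 12.50 and 12.58 in THP1 controls. It had 11.80, 11.76 and 11.77 in Jurkat GONH2, against 12.40, 12.22 and 12.33 in Jurkat controls. It fell by 0.64 and 0.54, and the 95% interval of the difference was -0.36 to 0.17. SPI1, which encodes PU.1, was read by a pair of probes with log2 fold changes of -0.64 and -0.62 in THP1 GO and of -0.59 and -0.42 in Jurkat GONH2, the last of which was not called. The Jurkat call of CEBPA was lost without Jurkat control replicate 1 (-0.50), and with median scaling neither gene was called in Jurkat GONH2. CEBPA and SPI1 were singled out after their values were seen. They were the only members called in Jurkat GONH2 among 25 tested myeloid markers, of which 2 rose and 11 fell in THP1 GO. Over all tested genes, 0.988% fell in Jurkat GONH2, and 7.03% rose and 8.08% fell in THP1 GO. CEBPB (0.36 and -0.11) and KLF4 (-0.19 and 0.19), also myeloid factors, were called in neither.

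RARA, the retinoic acid receptor alpha, fell by 0.77 in THP1 GO and 0.73 in Jurkat GONH2 (95% interval of the difference -0.43 to 0.36). Its Jurkat call was lost whichever Jurkat array but GONH2 replicate 1 was left out (-0.79 to -0.69). NFIX, a factor of blood stem cells, fell by 1.56 and 0.79, and its Jurkat call was lost without 5 of the 6 Jurkat arrays (-0.84 to -0.73). SEMA3E, a guidance molecule, fell by 0.74 in THP1 GO and 0.96 in Jurkat GONH2, and the histone acetyltransferase EP300, singled out after its values were seen, by 0.65 and 0.67. The Jurkat call of EP300 was lost whichever Jurkat array but GONH2 replicate 3 was left out (-0.71 to -0.56), and its THP1 call without THP1 control replicate 2 or 3 or THP1 GO replicate 2 (-0.65 to -0.56). The neuronal pentraxin gene NPTX1 was detected on no THP1 GO array and was at least 1.18-fold lower there, and it fell by 0.94 in Jurkat GONH2.

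TDP1, which clears topoisomerase from DNA ends, and ZMAT3, a p53 target, fell in both lines by their brightest probe (-0.85 and -1.19 for TDP1, -0.68 and -0.91 for ZMAT3), while no other probe of either gene was called. The THP1 call was lost in 9 of 12 omissions for TDP1 (-0.89 to -0.76) and in 4 for ZMAT3 (-0.66 to -0.59). THBD, the thrombin receptor thrombomodulin, was at least 2.07-fold lower in THP1 GO, where no array detected it, and fell by 0.52 in Jurkat GONH2, with a called difference. The Jurkat call was lost whichever Jurkat array was left out (-0.56 to -0.46), and the difference was not called without background correction, with an offset of 50, with median scaling or in the authors' normalized values. THBD was named after its values were seen.

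Interferon-stimulated genes gave the clearest contrast of direction among the listed groups. IFI27, a mitochondrial protein induced by interferon alpha, had log2 intensities of 6.99, 6.81 and 6.82 in THP1 GO, against 8.31, 8.22 and 8.35 in THP1 controls. It had 6.33, 6.44 and 6.40 in Jurkat GONH2, against 5.93, 5.40 and 5.47 in Jurkat controls. The groups did not overlap in either line, and the THP1 controls were the brightest. It fell by 1.42 in THP1 GO (adjusted p = 2.57e-05) and rose by 0.79 in Jurkat GONH2 (adjusted p = 0.0131), a difference of -2.21 (SE 0.18, adjusted p = 7.68e-05). The Jurkat call was lost without Jurkat control replicate 2 (0.69) or Jurkat GONH2 replicate 2 (0.76), while the difference was called whichever array was left out.

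IFI6, which protects infected cells from death, had log2 intensities of 9.47, 9.29 and 9.25 in THP1 GO, against 10.63, 10.48 and 10.55 in THP1 controls. It had 10.30, 10.60 and 10.40 in Jurkat GONH2, against 9.72, 9.75 and 9.78 in Jurkat controls. The order of the lines was thus turned round, with THP1 brighter in the controls and Jurkat brighter after treatment. The log2 fold changes were -1.22 and 0.68, and the difference was -1.90 (adjusted p = 4.39e-05). A second probe of the gene changed by -0.86 in THP1 GO and 0.37 in Jurkat GONH2 (not called). With median scaling the Jurkat rises of IFI6 and IFI27 were not called.

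OAS3, an enzyme that senses double-stranded RNA, had log2 intensities of 5.50, 5.48 and 5.35 in THP1 GO, against 6.23, 6.01 and 6.13 in THP1 controls. It had 7.34, 7.61 and 7.38 in Jurkat GONH2, against 6.31, 6.44 and 6.65 in Jurkat controls. It fell by 0.68 and rose by 0.98, with a difference of -1.66 (adjusted p = 0.000177). Every array detected it, and its fall in THP1 was not called without background correction or in the authors' normalized values.

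OAS2, a relative of OAS3, rose by 1.25 in Jurkat GONH2 (adjusted p = 0.0023) and was not called in THP1 GO (0.25), and the difference had an adjusted p of 0.00802. A second OAS2 probe changed by -0.04 in THP1 GO and 0.56 in Jurkat GONH2 and was called in neither. MX1, an antiviral GTPase, likewise rose by 0.82 in Jurkat GONH2, with -0.26 in THP1 GO (not called) and a difference of -1.07. ISG15, a ubiquitin-like protein, fell by 0.87 in THP1 GO, with 0.38 in Jurkat GONH2 (not called) and a difference of -1.25. IFIT2, which binds viral RNA, fell by 0.53 in THP1 GO and rose by 0.59 in Jurkat GONH2. The Jurkat call of IFIT2 was lost whichever Jurkat array was left out (0.52 to 0.65), its THP1 call without THP1 control replicate 1 or 2 or THP1 GO replicate 2 or 3 (-0.56 to -0.43), and the Jurkat call of MX1 without Jurkat control replicate 1 (0.69). The differences of IFIT2, MX1 and ISG15 were called whichever array was left out. MX1, ISG15 and IFIT2 were named after their values were seen.

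Of the 28 tested interferon-stimulated genes, 8 fell and 1 rose in THP1 GO, while 8 rose and 0 fell in Jurkat GONH2. The difference was called for 10, all lower in THP1 GO. The shares over all tested genes were 8.08% falling and 7.03% rising in THP1 GO, 0.952% rising in Jurkat GONH2 and 2.96% with a lower difference. The list's median log2 fold change was -0.17 in THP1 GO and 0.41 in Jurkat GONH2, with the same signs under every scaling tried. Only IRF7 rose in both lines, and IFI27, IFI6, OAS3 and IFIT2 were called in opposite directions. The brightest probes of BST2, XAF1 and IRF9 changed by at most 0.14 either way. With median scaling, 9 fell in THP1 GO and 3 rose in Jurkat GONH2.

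**Figure D3:**
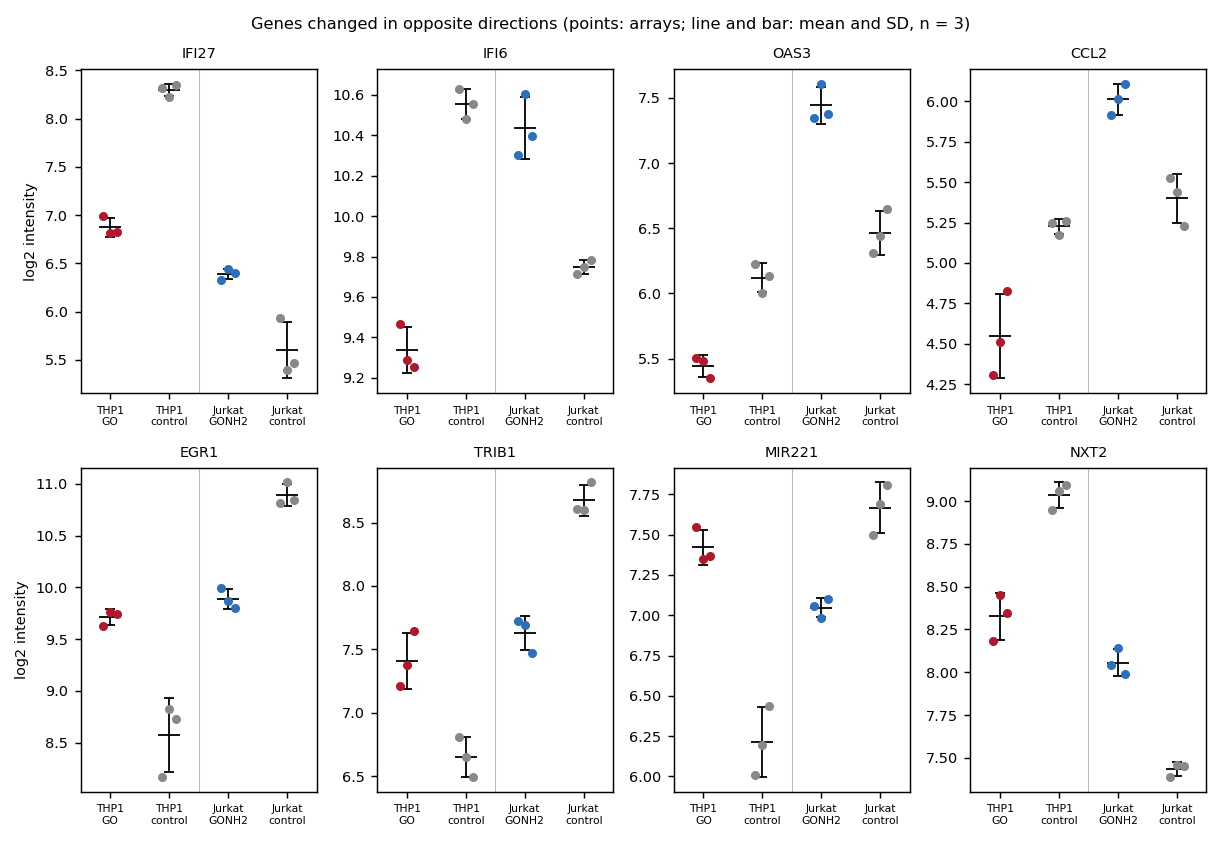
Log2 intensity of 8 genes called in opposite directions, by group, with points for arrays and a line and bar for the mean and SD (n = 3). The axes do not start at 0. IFI27, IFI6, OAS3, CCL2 and NXT2 are lower in THP1 GO and higher in Jurkat GONH2 than in the control of the line, and EGR1, TRIB1 and MIR221 are the other way round.

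EGR1, a transcription factor of the immediate early class, moved the other way. Its log2 intensities were 9.62, 9.76 and 9.75 in THP1 GO, against 8.17, 8.83 and 8.73 in THP1 controls. They were 9.99, 9.87 and 9.80 in Jurkat GONH2, against 10.82, 11.01 and 10.84 in Jurkat controls. It rose by 1.13 in THP1 GO (adjusted p = 0.000273) and fell by 1.00 in Jurkat GONH2 (adjusted p = 0.00864), a difference of 2.13 (SE 0.21, adjusted p = 0.000189) that was called in 14 of 14 other settings and 12 of 12 omissions of an array. The lines were 0.18 apart after treatment and 2.31 apart in the controls.

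TRIB1, a pseudokinase that promotes degradation of CEBPA protein, had log2 intensities of 7.21, 7.37 and 7.65 in THP1 GO, against 6.81, 6.65 and 6.50 in THP1 controls. It had 7.72, 7.69 and 7.47 in Jurkat GONH2, against 8.60, 8.60 and 8.82 in Jurkat controls. The log2 fold changes were 0.76 and -1.05, with a difference of 1.81, and the rise in THP1 was not called with median scaling. MIR221 had 7.55, 7.35 and 7.37 in THP1 GO, against 6.01, 6.20 and 6.44 in THP1 controls. It had 7.06, 6.98 and 7.10 in Jurkat GONH2, against 7.50, 7.69 and 7.81 in Jurkat controls. The changes were 1.21 and -0.62, and the Jurkat call was lost whichever Jurkat array was left out (-0.70 to -0.55), while the difference of 1.83 had an adjusted p of 0.000157.

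Levels of the lines lay closer together after treatment for some of these genes and farther apart for others. The gap narrowed for EGR1, TRIB1, MIR221, IFI27, NXT2, CMTM8, PIGQ and LPCAT1, 8 of the 14 opposite genes, and widened for IFI6, OAS3, IFIT2, CCL2, MAPK8IP3 and ERCC6L. Over the 20 opposite probes the absolute gap was smaller after treatment in 12 (60%), against 40.1% of the probes with a called difference and 47.3% of all tested probes. NXT2, a factor of mRNA export, fell by 0.71 in THP1 GO and rose by 0.62 in Jurkat GONH2.

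Few other immediate early genes were called. FOS rose by 0.59 in THP1 GO, with -0.35 in Jurkat GONH2 (not called) and a difference of 0.94 (adjusted p = 0.00535). The THP1 call of FOS was lost without THP1 control replicate 1 or 3 or THP1 GO replicate 2 or 3 (0.50 to 0.59), and with median scaling neither that call nor the difference held. DUSP1, a phosphatase that ends MAP kinase signaling, fell by 0.67 in Jurkat GONH2, with -0.11 in THP1 GO (not called), and their difference of 0.56 was not called. SGK1, a kinase induced by serum and glucocorticoids, rose by 1.17 in Jurkat GONH2 by its brightest probe, which no THP1 array detected. Its difference was not called, while that of a second probe was. Of 20 tested genes of this list, 3 rose and 1 fell in THP1 GO, 1 rose and 3 fell in Jurkat GONH2, and 3 differences were called, all higher in THP1 GO. Over all tested genes, 0.952% rose and 0.988% fell in Jurkat GONH2, and 3.26% had a higher difference. The THP1 GO counts are near the shares over all tested genes, 7.03% rising and 8.08% falling. The medians were 0.11 and -0.15, and that of THP1 GO was -0.02 with median scaling.

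Some genes gave probes that disagreed. For NOP56, a protein of box C/D ribonucleoproteins, a probe changed by -0.88 in THP1 GO and 0.60 in Jurkat GONH2, another fell by 1.00 in THP1 GO and by 0.44 in Jurkat GONH2, and the third changed by -0.78 and 0.23. For ATF4, a regulator of amino acid stress, the brightest probe changed by 0.15 and 0.05, another by 0.71 and -0.61 and the third by 0.57 and 0.38. The Jurkat call of the second ATF4 probe was lost in 10 of 12 omissions of an array (-0.65 to -0.55), and that of the second NOP56 probe whichever Jurkat array but GONH2 replicate 3 was left out (-0.46 to -0.40). A call of opposite direction for these genes therefore belongs to a probe and not to the gene. MAFF, a small MAF protein, had an opposite call by a dimmer probe, while its brightest probe changed by -0.57 in THP1 GO (not called) and -0.95 in Jurkat GONH2, a call that was lost whichever Jurkat array but GONH2 replicate 2 was left out (-1.05 to -0.73).

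Responses of THP1 GO without a call in Jurkat GONH2 made up most of the difference. Of the 1072 probes with a called difference, 891 were called in THP1 GO alone, 475 up and 416 down, 54 in Jurkat GONH2 alone and 102 in neither. AKR1C2, an aldo-keto reductase of steroid and xenobiotic metabolism, had log2 intensities of 11.43, 11.17 and 11.32 in THP1 GO, against 8.46, 8.31 and 8.03 in THP1 controls, an 8.23-fold rise (log2 fold change 3.04, SE 0.12, adjusted p = 5.6e-08). No Jurkat array detected it, so the difference of 3.17 rests on the THP1 side. AKR1C4 and AKR1C3 rose by 2.97 and 2.35 in THP1 GO and were detected on no Jurkat array either. The AKR1C genes are near-identical, and their probes may read each other. None of 12 tested NRF2 antioxidant genes was called in either line or for the difference, and with 7.03% of all genes rising and 8.08% falling in THP1 GO, a list of this size would hold few calls in any case.

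DLL1, a ligand of Notch receptors, had log2 intensities of 8.27, 8.30 and 8.18 in THP1 GO, against 5.51, 5.37 and 5.31 in THP1 controls. It had 10.30, 10.29 and 10.25 in Jurkat GONH2, against 10.20, 10.22 and 10.32 in Jurkat controls. The Jurkat arrays were bright in both groups, and the THP1 arrays were apart from them and from each other. The rise in THP1 GO was 2.86 (SE 0.08, adjusted p = 8.02e-09), the Jurkat change was 0.03, and the difference was 2.82. NRG4, a ligand of the receptor ERBB4, rose by 2.70 and ANTXR2, an anthrax toxin receptor, by 1.97 in THP1 GO, with 0.23 and 0.03 in Jurkat GONH2. TIAM2 and TCEA3 were detected on no THP1 control and no Jurkat array, and were at least 2.28-fold and 2.65-fold higher in THP1 GO.

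**Figure D4:**
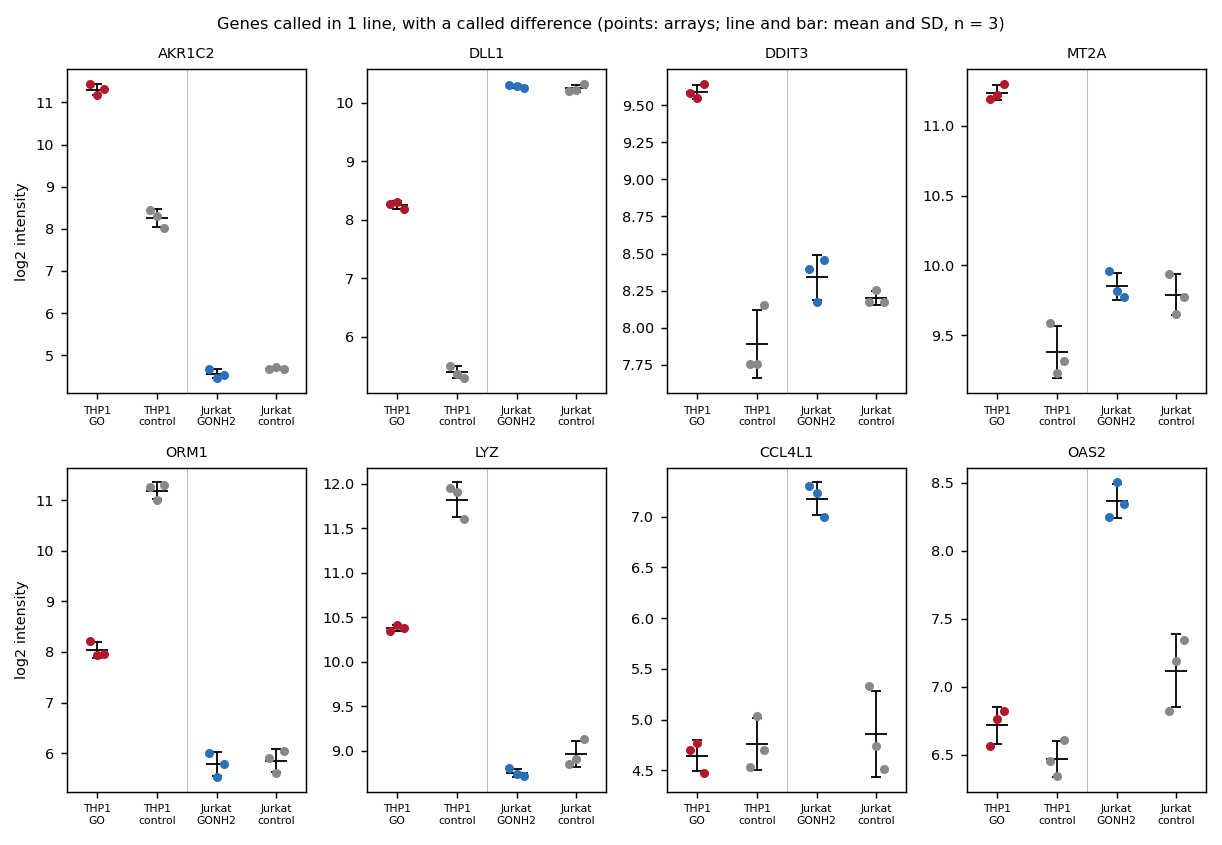
Log2 intensity of 8 genes called in 1 line with a called difference, by group, with points for arrays and a line and bar for the mean and SD (n = 3). The axes do not start at 0. AKR1C2, DLL1, DDIT3 and MT2A are higher and ORM1 and LYZ lower in THP1 GO than in THP1 controls, and CCL4L1 and OAS2 are higher in Jurkat GONH2 than in Jurkat controls.

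Of the 24 tested genes of the unfolded protein and amino acid stress response, 12 rose in THP1 GO, against 7.03% of all tested genes. DDIT3, the stress factor CHOP, had log2 intensities of 9.58, 9.55 and 9.64 in THP1 GO, against 7.75, 7.76 and 8.15 in THP1 controls. It had 8.40, 8.17 and 8.46 in Jurkat GONH2, against 8.18, 8.26 and 8.17 in Jurkat controls, where the groups overlapped. The rise in THP1 GO was 1.70 (adjusted p = 5.64e-06), the Jurkat change 0.14 and the difference 1.57 (adjusted p = 0.000301). ASNS, asparagine synthetase, rose 2.82-fold in THP1 GO. On the log2 scale the serine synthesis gene PHGDH rose by 1.03 and the folate enzyme MTHFD2 by 1.09 there. Of the list, 0 were called in Jurkat GONH2, where only 0.952% of all tested genes rose and 0.988% fell. For the list, 8 differences were called, all higher in THP1 GO, against 3.26% of all tested genes. The medians were 0.45 and -0.02, and with median scaling 3 rose in THP1 GO.

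MT2A, a metallothionein that binds zinc and copper, had log2 intensities of 11.19, 11.22 and 11.30 in THP1 GO, against 9.59, 9.23 and 9.32 in THP1 controls. It had 9.96, 9.82 and 9.78 in Jurkat GONH2, against 9.94, 9.65 and 9.78 in Jurkat controls. It rose by 1.86 in THP1 GO and changed by 0.06 in Jurkat GONH2 (not called), with a difference of 1.80 (adjusted p = 0.000106). MT1X, a close relative, rose by 0.80 with a difference of 0.82. Of 10 tested metallothionein and zinc transporter genes, 3 rose in THP1 GO and 0 were called in Jurkat GONH2. Over all tested genes, 7.03% rose in THP1 GO, and 0.952% rose and 0.988% fell in Jurkat GONH2. The list's median in THP1 GO was 0.23, and with median scaling it was -0.09.

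Some glucose and lipid genes were called in THP1 GO. SLC2A3, a glucose transporter, rose by 1.92 and HK2, a hexokinase, by 1.00 in THP1 GO, both with 0.40 in Jurkat GONH2 (not called). The difference was called for SLC2A3 (1.53) and not for HK2, whose second probe changed by 0.55 and 0.52. Of 21 glycolysis and glucose transport genes, 7 rose and 1 fell in THP1 GO, 0 were called in Jurkat GONH2 and 4 differences were called, all higher in THP1 GO. Over all tested genes, 7.03% rose and 8.08% fell in THP1 GO, 0.952% rose and 0.988% fell in Jurkat GONH2, and 3.26% had a higher difference. The list's THP1 GO median of 0.20 was -0.06 with median scaling. PLIN2, which coats lipid droplets, rose by 1.54, and ABCA1, a cholesterol exporter, by 1.05. Of 12 lipid efflux genes 3 rose and 2 fell in THP1 GO, with CD36, a scavenger receptor, at least 1.23-fold lower. Of 19 cholesterol synthesis genes 2 fell, LSS by 0.76 and SC5D by 0.42, and of 9 fatty acid synthesis genes FASN fell by 0.54. The counts of the cholesterol and fatty acid synthesis genes are near the 8.08% of all tested genes that fell. The SC5D call was lost in 11 of 12 omissions of an array and in 4 of 14 other settings. CD44, a receptor for hyaluronan, rose by 1.98 in THP1 GO with 0.32 in Jurkat GONH2 (not called), and a second probe changed by 1.17 and 0.04.

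Hosts of small nucleolar RNAs, noncoding genes that carry these RNAs in introns, were on opposite sides of 0. SNHG1 rose by 0.91 and SNHG7 by 0.95 in THP1 GO, with -0.24 and -0.21 in Jurkat GONH2 (not called), and both differences were 1.15. Of 10 tested hosts, 4 rose in THP1 GO, 1 fell in Jurkat GONH2 (SNHG9, -0.48), and 5 differences were called, all higher in THP1 GO. Over all tested genes these shares were 7.03%, 0.988% and 3.26%. The call of SNHG9 was lost in 8 of 12 omissions of an array (-0.50 to -0.39). The medians were 0.37 and -0.16. With median scaling no host was called in either line or for the difference, and the medians were 0.08 and -0.25.

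Several genes of secreted and granule proteins fell in THP1 GO. ORM1, an acute-phase plasma protein, had log2 intensities of 8.22, 7.94 and 7.96 in THP1 GO, against 11.25, 10.99 and 11.30 in THP1 controls, an 8.84-fold fall. It had 6.00, 5.53 and 5.79 in Jurkat GONH2, against 5.91, 5.61 and 6.04 in Jurkat controls, where the groups overlapped. The difference was -3.07 (SE 0.21, adjusted p = 2.36e-05), and the near-identical ORM2 may contribute signal. CES1, a carboxylesterase of monocytes, fell by 1.93 and CHI3L1, a chitinase-like secreted protein, by 1.70, with -0.26 and -0.20 in Jurkat GONH2 (not called).

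LYZ, lysozyme, had log2 intensities of 10.35, 10.42 and 10.38 in THP1 GO, against 11.95, 11.91 and 11.60 in THP1 controls. It had 8.81, 8.74 and 8.72 in Jurkat GONH2, against 8.86, 8.91 and 9.13 in Jurkat controls. It fell by 1.44 in THP1 GO and was not called in Jurkat GONH2 (-0.21), and a second probe changed by -1.06 and 0.26. Of 10 tested S100 and secreted protein genes, 5 fell and 1 rose in THP1 GO, of 12 azurophil granule genes 6 fell and 1 rose, and none of these was called in Jurkat GONH2. Over all tested genes, 8.08% fell and 7.03% rose in THP1 GO, and 0.988% fell and 0.952% rose in Jurkat GONH2. The lists' medians in THP1 GO were -0.87 and -0.31, against -0.14 and -0.14 in Jurkat GONH2. TLR4, the receptor for lipopolysaccharide, fell in THP1 GO to levels that no array detected, and the difference was called.

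Fewer genes responded in Jurkat GONH2 with a called difference. NKD2, an inhibitor of Wnt signaling, had log2 intensities of 10.23, 10.18 and 10.13 in THP1 GO, against 9.90, 10.21 and 10.11 in THP1 controls. It had 9.05, 9.00 and 9.04 in Jurkat GONH2, against 10.24, 10.18 and 10.09 in Jurkat controls. It fell by 1.14 in Jurkat GONH2 (adjusted p = 0.000403) and changed by 0.10 in THP1 GO, where the groups overlapped, with a difference of 1.24 (adjusted p = 0.000294) that was not called with median scaling. MYO1G, a myosin of blood cells, fell by 0.71 in Jurkat GONH2 with 0.39 in THP1 GO (not called) and a difference of 1.10. Its Jurkat call was lost without Jurkat control replicate 1 or 2 (-0.70 and -0.67).

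IL1B, the cytokine interleukin 1 beta, had log2 intensities of 4.40, 4.99 and 4.84 in THP1 GO, against 5.49, 5.02 and 5.38 in THP1 controls, and was detected on 0 and 1 of 3 arrays there. It had 7.73, 7.61 and 7.58 in Jurkat GONH2, against 6.61, 6.70 and 6.89 in Jurkat controls. The rise in Jurkat GONH2 was 0.91 (adjusted p = 0.0182), and the call was lost whichever Jurkat array but control replicate 3 was left out (0.84 to 0.94). TNF was not called in either line (0.05 and -0.73), and IRF1 rose by 0.63 in THP1 GO, with 0.04 in Jurkat GONH2 and no called difference. The call of IRF1 was lost whichever THP1 array but control replicate 1 was left out (0.51 to 0.68). CXCL10 and CCL4L2 were not among the tested genes.

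Heat shock genes that were called fell in THP1 GO, and 1 rose in Jurkat GONH2. HSP90AA1, a cytosolic chaperone, fell by 0.77 in THP1 GO with -0.02 in Jurkat GONH2 (not called), and HSPH1, a nucleotide exchange factor of HSP70, fell by 0.67 with 0.12. HSPA4, of the same kind as HSPH1, rose by 0.68 in Jurkat GONH2 with -0.15 in THP1 GO (not called), though a second probe changed by 0.17 in Jurkat GONH2. Of 13 tested genes, 4 fell in THP1 GO, 1 rose in Jurkat GONH2, and 4 differences were called, all lower in THP1 GO. Over all tested genes, 8.08% fell in THP1 GO, 0.952% rose in Jurkat GONH2 and 2.96% had a lower difference. The called difference of DNAJA1, a member of the list, was lost in 10 of 12 omissions of an array. The list's medians were -0.16 and 0.03, and the second was -0.00 with median scaling.

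**Figure D5:**
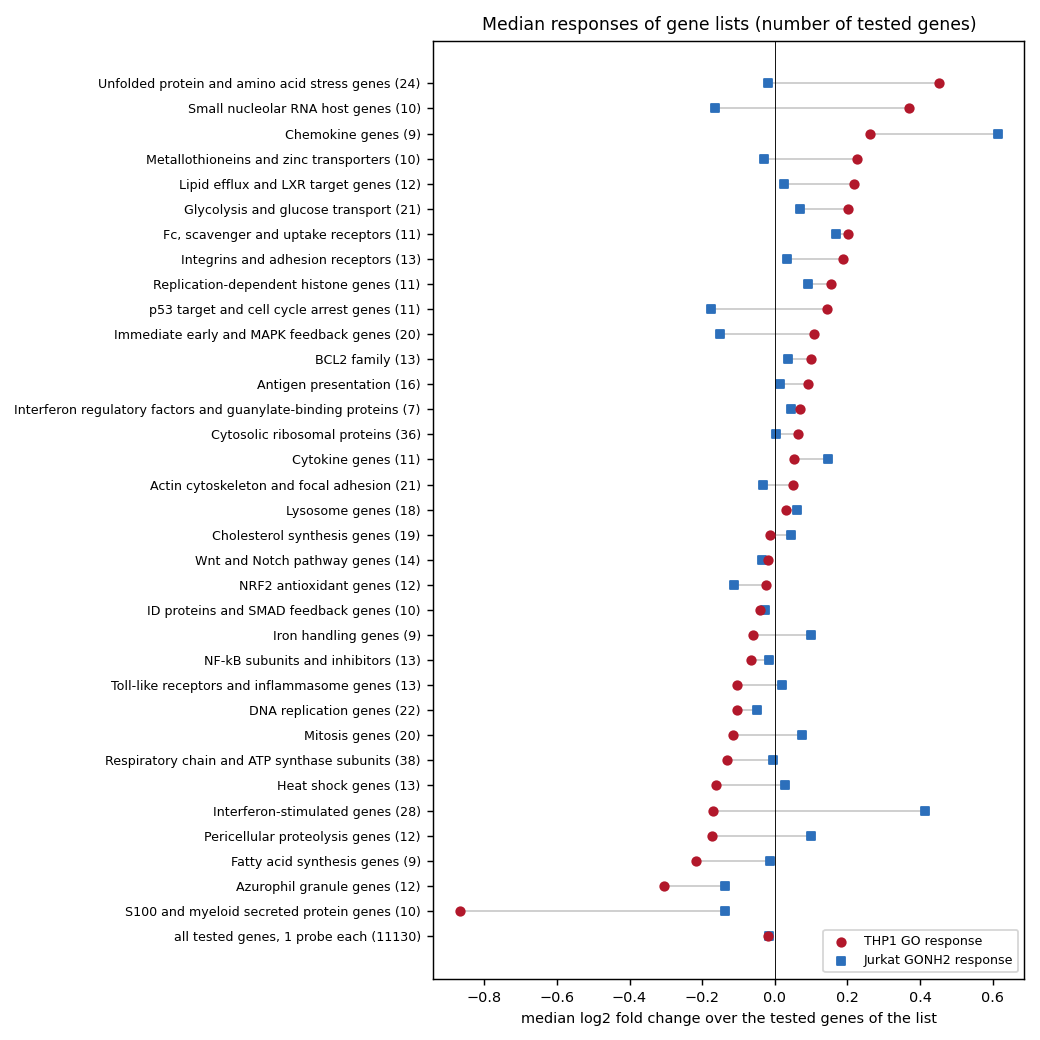
Median log2 fold change of gene lists with 7 or more tested genes, cell type markers aside, with circles for THP1 GO and squares for Jurkat GONH2, and the number of tested genes in parentheses. Interferon-stimulated genes lie at -0.17 in THP1 GO and 0.41 in Jurkat GONH2, stress response genes at 0.45 and -0.02, and all tested genes at -0.02 in both.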

How the data were processed

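Illumina HumanHT-12 v4 signals of 18 arrays were used, 3 per group. The deposited intensities had been read by the authors with GenomeStudio and not normalized, and detection p-values per probe were deposited beside them. The intensities that the authors had normalized were used as an alternative. The neqc function of limma 3.58.1 in R 4.3.3 corrected the background from those p-values, added an offset of 16, made the quantiles of the 18 arrays equal and took log2. Tests ran on the 19455 of 47217 probes that 3 or more arrays detected (p under 0.01), and median signals ran from 103 to 150. The reference named 30106 probes by 1 symbol, 8 by several and 17103 by none.

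The 4 groups were fitted together, with 1 contrast per line and 1 for their difference (THP1 GO response minus Jurkat GONH2 response). Errors are standard errors of the fit. Each of 11130 genes was represented by its brightest tested probe over the 18 arrays. A called gene with no detected array in 1 of the groups compared has a lower bound in place of a fold, from the lowest signal of a detected probe. The fit was tested on simulated data. The precision is limited by 3 arrays per group.

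Named genes were the 10 raised and 10 lowered in both lines with the largest smaller change and no overlap of groups, the 10 largest differences each way, up to 8 opposite genes, up to 4 called members of each of 40 lists, and genes named by the study. The members and lists were chosen with earlier results of these data known. Fold changes and p-values of the study's own comparisons were not used.

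Alternatives were other normalizations, filters, fits, thresholds and probe rules, a replicate block, groups paired by label and each array left out. No slide numbers were in the sources used here, so a slide block was not run.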

Additional observations from a re-analysis of the deposited data

Results flagged for a closer look

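The responses differed between the lines, by the test of the difference itself, for 1072 probes. The results below were picked out by that test among the named genes, and each value is the THP1 GO log2 fold change minus the Jurkat GONH2 log2 fold change. Among genes that were higher in the THP1 GO response, the difference was 3.17 for AKR1C2, 2.82 for DLL1, 2.73 for AKR1C4, 2.46 for NRG4 and 2.43 for AKR1C3. It was 2.22 for TIAM2, 2.15 for TCEA3, 2.13 for EGR1, 2.03 for CLSTN2, 1.94 for ANTXR2, 1.83 for MIR221 and 1.81 for TRIB1. The AKR1C genes, TIAM2 and TCEA3 were detected on no Jurkat array of this comparison, NRG4 on 1 and CLSTN2 on 0, so their Jurkat values lie at background. TIAM2 and TCEA3 were also detected on no THP1 control, so their differences are fitted values against background and have no place in an order of sizes.

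Among genes that were lower in the THP1 GO response, it was -3.07 for ORM1, -2.43 for CCL4L1, -2.21 for IFI27, -1.90 for IFI6, -1.67 for CES1 and -1.66 for OAS3. It was -1.62 for ARTN, -1.58 for ADI1, -1.58 for ARHGEF16, -1.53 for CES1P1, -1.33 for NXT2 and -1.29 for CCL2. CCL4L1 was detected on no THP1 array of this comparison, CCL2 and ARHGEF16 on no THP1 GO array, and ARTN on no THP1 GO array and no Jurkat control array, so these differences are fitted values against background too.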

How the results depend on the processing

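The counts of called probes were 2583 for THP1 GO, 405 for Jurkat GONH2, 1072 for the difference, 113 alike and 20 opposite. In the authors' normalized values the last 4 were 775, 1760, 276 and 35, and without background correction 764, 1747, 272 and 34. An offset of 50 gave 183 alike. Median scaling gave 66 in Jurkat GONH2, 590 differences, 29 alike and 2 opposite. It called 2330 in THP1 GO, 259 raised and 2071 lowered, and 112 differences higher and 478 lower in THP1 GO, against 561 and 511, and 43.9% of its Jurkat GONH2 calls were rises, against 59.0%. With no detection filter there were 161 in Jurkat GONH2, 61 alike and 8 opposite, and with 18 arrays in 1 fit 259 in Jurkat GONH2 and 10 opposite. An adjusted p alone gave 5464 in THP1 GO, 2166 differences, 194 alike and 34 opposite, and an added 2-fold change gave 384, 23, 356, 4 and 1. Fits of 6 arrays gave 1543, 158, 39 alike and 6 opposite, and the random variance test 1576 and 163. With groups paired by label, that is with THP1 GONH2, there were 3615 differences, 23 alike and 31 opposite. Cyclic loess, normalization of 12 arrays or of each line and detection on all 12 arrays kept all 5 counts within 1.5 times.

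Leaving out 1 array gave 1855 to 2573 for THP1 GO, 75 to 456 for Jurkat GONH2, 809 to 968 differences, 27 to 99 alike and 6 to 19 opposite. Every Jurkat array moved the Jurkat GONH2, alike and opposite counts by over 1.5 times, as did THP1 GO replicate 2 (259, 68 and 13). THP1 control replicate 2 moved the alike and opposite counts (72 and 12) and THP1 GO replicate 3 the alike count (75). Of the named calls, 43 of 150 in THP1 GO, 31 of 53 in Jurkat GONH2 and 31 of 90 differences were lost with median scaling. RPL34 changed sign in THP1 GO when its probes were averaged (0.0033). Same-numbered arrays were not taken as pairs, since r of their deviations was over 0.1 in 1 of 18 comparisons between groups (0.0289 to 0.137), although the highest r was with the same number in 18 of 18, a hint from the data alone, and the replicate block gave 2475, 445, 1046, 120 and 18. The 3 arrays per group and the dim probes limit what could be called.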

Other observations

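The largest rise among the tested probes in Jurkat GONH2 belonged to ILMN_3235832, which has no gene symbol in the reference used here. Its log2 fold change was 0.14 in THP1 GO and 2.75 in Jurkat GONH2. ILMN_2100209, also unnamed, changed by 0.08 and 2.39 in the same order.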
